A study of Rattus norvegicus with 42 samples.

Results

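The genes of the urea cycle and of its ammonia supply comprised 9 members, namely Cps1, Otc, Ass1, Asl, Arg1, Nags, Slc25a15, Glud1 and Gls2, out of 26426 genes named in the table of serine 2 phosphorylated RNA polymerase II (pSer2 Pol2) occupancy. They were chosen by name in that table, and their Ensembl identifiers located the mRNA of each. Glucocorticoid receptor (GR) binding regions were assigned where the centre of the region lay within 50 kb of a transcription start site (TSS) of a member, which gave 21 of 3981 regions at 7 members. No GR region lay within 50 kb of a TSS of Otc or Nags. The members covered 13 different pSer2 Pol2 regions, which the table lists as 22 of its 60999 regions because transcripts can share a position.

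Livers came from adrenalectomised male Sprague Dawley rats infused intravenously for 3 h with corticosterone (CORT) or vehicle (VEH). All rats, controls included, carried the adrenalectomy, received dexamethasone after surgery and drank CORT until the washout that preceded the infusion, and their age is not given in the sources used here. Pulsatile rats (PULS) received CORT for 20 min of each hour and were sampled at 140 min, the peak of the third pulse (PEAK_140), or at 180 min, the nadir before the next pulse (NADIR_180). Constant rats received a continuous infusion, begun at a faster rate, and were sampled at 140 min (CONS_140) or 180 min (CONS_180).

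The ChIP-Seq groups held 2 libraries each for GR and for pSer2 Pol2, and every library pooled 6 rats, so that 10 libraries stood behind each antibody. The VEH group held 1 library at 140 min and 1 at 180 min, both with vehicle given in pulses, so time within VEH cannot be told apart from the library. RNA-Seq was performed at 180 min on 3 livers per group, with pulsatile CORT (PULS CORT), constant CORT (CONS CORT) and a vehicle group for each pattern (PULS VEH, CONS VEH). The chromatin of both antibodies came from the same pools, and no value here measures enzyme activity or urea. In the sample titles, pulsatile CORT libraries of each antibody carry lower numbers than VEH libraries, and constant CORT libraries carry higher ones. The RNA livers given CORT carry lower numbers than all vehicle livers, and CONS VEH replicate 1 carries the highest. What these numbers follow is not given, and their part in the comparisons below was not tested.

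The urea cycle turns ammonia, which is toxic to the brain, into urea for excretion, and it is complete only in the liver, chiefly in the periportal hepatocytes. Nags makes N-acetylglutamate, without which Cps1 cannot join ammonia and bicarbonate to carbamoyl phosphate in the mitochondrion. Otc adds that product to ornithine, Slc25a15 exchanges ornithine and citrulline across the inner mitochondrial membrane, and Ass1, Asl and Arg1 complete the cycle in the cytosol. Glud1 and Gls2 release ammonia from glutamate and glutamine beside the cycle. Glucocorticoids are long known to raise urea cycle enzymes when protein is broken down for gluconeogenesis.

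Library totals ranged from 2051977 to 6715803 tags for GR, from 4938473 to 9326927 tags for pSer2 Pol2 and from 3956379 to 7777219 reads for RNA, and the deepest GR library was CONS_140 replicate 1 with 6715803 tags. Both CONS_140 libraries of pSer2 Pol2, with 9326927 and 8923921 tags, were deeper than all others of that antibody. Hepatocyte markers (8 of 8 tested) summed to between 142244 and 189196 CPM (reads per library scaled to a common total) in the 12 RNA libraries, and 0 of the 8 were called with either pattern by edgeR. In pSer2 Pol2 1 of the 8, Ttr, was lowered at PEAK_140 (log2 -1.73, adjusted p = 0.010, limma). The 5 control genes of the CORT response (Fkbp5, Per1, Tsc22d3, Tat and Zbtb16) rose in mRNA in both patterns. In pSer2 Pol2, Per1, Tsc22d3 and Zbtb16 were called raised against VEH at PEAK_140, CONS_140 and CONS_180. Fkbp5 was called in the constant groups only, and Tat in no group. The summed level of 6 stellate cell markers was lower with CORT, at 258 to 300.4 CPM in PULS VEH against 177 to 223 CPM in PULS CORT, and at 241 to 269 CPM in CONS VEH against 167 to 192 CPM in CONS CORT. Among them Pdgfrb fell (log2 -1.29) and Dcn rose (log2 1.16) with constant CORT, the Dcn call being lost without CONS CORT replicate 1 or CONS VEH replicate 1 or 3 (adjusted p = 0.19, 0.12 and 0.13, edgeR), and pSer2 Pol2 at Pdgfrb was lowered at PEAK_140 (log2 -3.43, adjusted p = 0.011, limma). With pulsatile CORT the sums of erythroid markers (173 to 311 CPM in VEH against 322 to 383 CPM in CORT) and of cholangiocyte markers (8.88 to 11.2 CPM against 11.5 to 15.8 CPM, Krt19 at 0 reads) were higher, and with constant CORT both overlapped, although the erythroid marker Slc4a1 fell (log2 -1.56, adjusted p = 0.044, edgeR, lost without any 1 of 9 libraries). The CONS VEH livers stood at 313 to 381 CPM for erythroid and 8.31 to 15.0 CPM for cholangiocyte markers, which overlapped PULS CORT. Sums of Kupffer cell (Cd5l at 0 reads), endothelial and lymphocyte markers overlapped in both patterns. The part of these shifts in the results below was not tested.

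A gene or region was called when its adjusted p was below 0.05 over all genes or regions tested and its change exceeded 1.5-fold. The RNA test was edgeR's quasi-likelihood test and the ChIP test was limma on the deposited log2 values, and the adjusted p-values below are from these tools.

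At 180 min of CORT the mRNA of Cps1, Ass1, Arg1 and the ornithine carrier Slc25a15 was raised in both patterns, with Slc25a15 changing most. Pulsatile CORT raised 6 of the 8 tested members (Cps1, Ass1, Arg1, Slc25a15, Glud1 and Nags) and lowered 0, where 4.23% of all 14092 genes tested were called. Constant CORT raised 4 of 8 (Cps1, Ass1, Arg1 and Slc25a15) and lowered 0, against 9.20% of all genes tested. The median log2 change of the members was 0.87 for PULS and 0.76 for CONS, and that of all genes was -0.01 in each. In whole liver, RNA per cell and the share of a cell type cannot be told apart for a single gene. The 8 hepatocyte markers had a median log2 change of -0.03 with PULS and -0.24 with CONS, with 0 called.

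**Figure D1:**
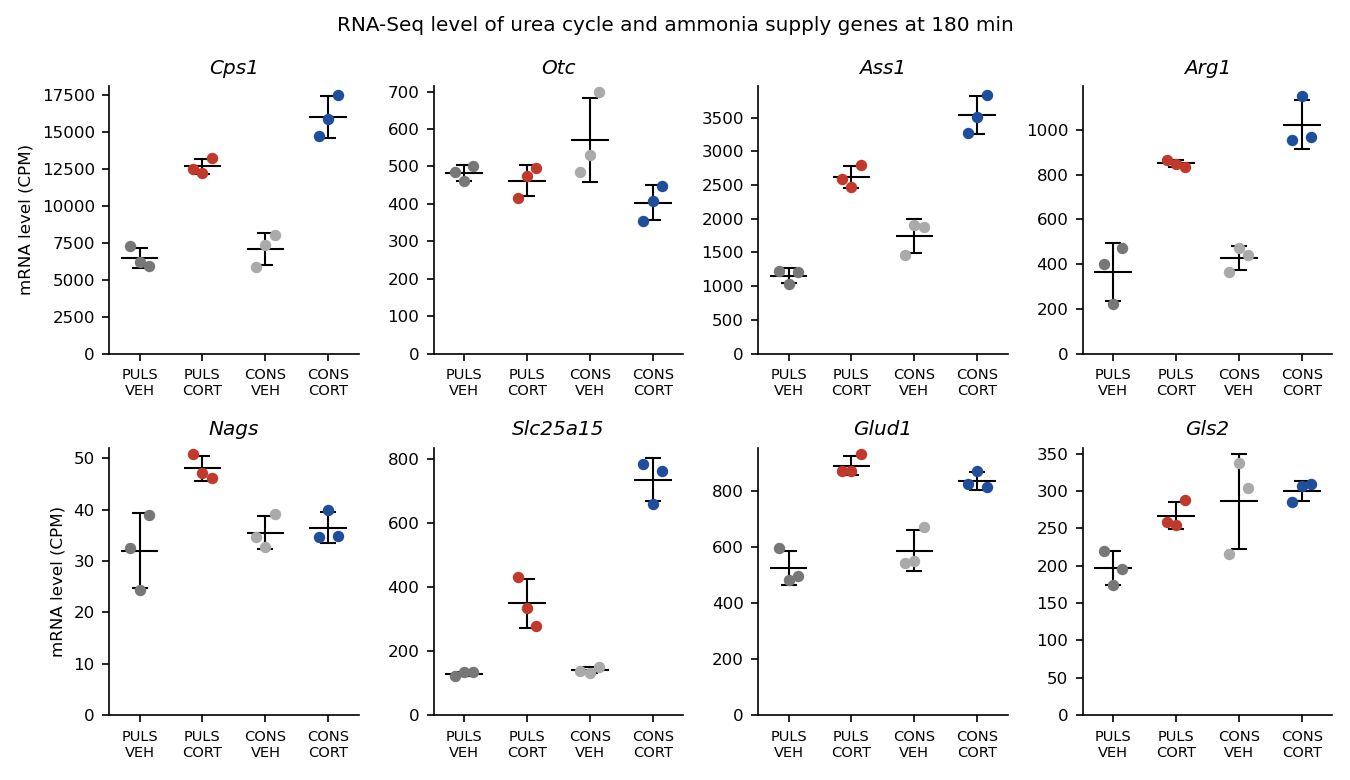
mRNA level in CPM (vertical axis, from 0) of the 8 members with reads in each of the 12 RNA-Seq libraries. Points are livers, the horizontal line is the mean and the bars are 1 SD (n = 3). Slc25a15 stood at 122 to 149 CPM in the 6 vehicle livers, at 278 to 432 CPM in PULS CORT and at 659.6 to 785 CPM in CONS CORT, while Otc was not raised in either CORT group.

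The entry of the cycle was led by Cps1, the enzyme that fixes ammonia. Cps1 mRNA measured 7257, 6224 and 5929 CPM in the PULS VEH livers and 12511, 12254 and 13269.7 CPM in PULS CORT. In the constant arms it measured 5861, 7348 and 7999 CPM with VEH and 14711, 15888 and 17529 CPM with CORT. Each CORT liver was above all 6 vehicle livers, and each CONS CORT liver was above each PULS CORT liver. The change was 1.96-fold with PULS (log2 0.97, SE 0.14, adjusted p = 0.00072, edgeR) and 2.27-fold with CONS (log2 1.18, SE 0.14, adjusted p = 3.4e-05, edgeR).

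Nags, which makes the activator of Cps1, was far less abundant and rested on 129 to 284 reads per library. Its mRNA measured 32.6, 24.4 and 39.0 CPM in PULS VEH, and 50.8, 47.2 and 46.2 CPM in PULS CORT. The constant arms measured 34.7, 32.8 and 39.1 CPM with VEH and 34.7, 40.0 and 34.9 CPM with CORT, which overlapped. The PULS CORT livers were above all the other 9 livers, with a 1.51-fold change (log2 0.59, SE 0.15, adjusted p = 0.028, edgeR), just past the fold threshold. The call was lost without PULS VEH replicate 1 or 2 (adjusted p = 0.065 and 0.11, edgeR) and without PULS CORT replicate 1, 2 or 3 (adjusted p = 0.094, 0.073 and 0.052, edgeR). Under CONS the change of Nags was 0.04 (log2, SE 0.14, adjusted p = 0.90, edgeR), and the difference of the CONS and PULS responses was -0.55 (log2, SE 0.21, adjusted p = 0.27, edgeR).

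Otc, which forms citrulline, had a mean mRNA level below that of vehicle in both patterns. It measured 486, 461 and 502 CPM in PULS VEH and 416, 475 and 496 CPM in PULS CORT, which overlapped (log2 -0.06, SE 0.14, adjusted p = 0.86, edgeR). It measured 484, 530.1 and 698 CPM in CONS VEH and 355, 408 and 448 CPM in CONS CORT, where the 3 CORT livers lay below the 3 vehicle livers. The CONS change of -0.50 (log2, SE 0.14, adjusted p = 0.027, edgeR) passed the adjusted p but not the 1.5-fold threshold, and it passed both without CONS VEH replicate 1 (log2 -0.61, adjusted p = 0.010, edgeR).

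Slc25a15, the carrier that brings ornithine in and citrulline out, showed the largest mRNA change of the 8 tested members in each pattern. It measured 122, 133 and 134 CPM in PULS VEH against 432, 336 and 278 CPM in PULS CORT, and 138, 131 and 149 CPM in CONS VEH against 785, 659.6 and 762 CPM in CONS CORT. The 3 kinds of liver (vehicle, PULS CORT and CONS CORT) did not overlap. The change was 2.69-fold with PULS (log2 1.43, SE 0.15, adjusted p = 3.5e-05, edgeR) and 5.27-fold with CONS (log2 2.40, SE 0.15, adjusted p = 4.6e-08, edgeR).

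In the cytosol, Ass1, which joins citrulline to aspartate, measured 1228, 1025 and 1209 CPM in PULS VEH and 2585, 2469.9 and 2795 CPM in PULS CORT. The constant arms measured 1456, 1914 and 1876 CPM with VEH and 3273, 3509.6 and 3832 CPM with CORT. All 4 groups were apart from each other, so that the vehicle groups also differed in level (log2 PULS VEH against CONS VEH -0.60, SE 0.13, adjusted p = 0.25, edgeR, not called). Ass1 rose 2.27-fold with PULS (log2 1.18, SE 0.13, adjusted p = 9.2e-05, edgeR) and 2.02-fold with CONS (log2 1.02, SE 0.13, adjusted p = 8.5e-05, edgeR).

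Arg1, which splits arginine into urea and ornithine, measured 401, 221 and 472 CPM in PULS VEH and 867, 850.4 and 835 CPM in PULS CORT. It measured 367, 474 and 440.3 CPM in CONS VEH and 957, 1151 and 967 CPM in CONS CORT. Every CORT liver was above every vehicle liver, and PULS VEH replicate 2 was the lowest of the 12. The change was 2.33-fold with PULS (log2 1.22, SE 0.20, adjusted p = 0.0021, edgeR) and 2.40-fold with CONS (log2 1.26, SE 0.20, adjusted p = 0.00049, edgeR).

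Asl, which splits argininosuccinate, was listed at 0 reads in all 12 libraries, which allows up to 3 reads per library or 0.386 to 0.758 CPM by counting error alone. The gene held clear pSer2 Pol2 signal in the same kind of liver (mean log2 value 8.92), and 5 of the 107 genes with a 10 kb region at or above that value were listed at 0 reads in every library, Asl and the gluconeogenic gene G6pc among them. No statement on Asl mRNA was therefore made.

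Of the ammonia suppliers, Glud1 (glutamate dehydrogenase) measured 597, 482 and 498 CPM in PULS VEH and 871, 873 and 933 CPM in PULS CORT, and 543, 549.9 and 671 CPM in CONS VEH against 827, 874 and 814 CPM in CONS CORT. All CORT livers were above all vehicle livers. Glud1 rose 1.70-fold with PULS (log2 0.76, SE 0.12, adjusted p = 0.0016, edgeR), and its 1.43-fold change with CONS (log2 0.51, SE 0.12, adjusted p = 0.0099, edgeR) stayed under the fold threshold, except without CONS VEH replicate 3 (log2 0.62, adjusted p = 0.0062, edgeR).

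Gls2, the liver glutaminase, measured 220.1, 174 and 196 CPM in PULS VEH and 258, 254 and 288 CPM in PULS CORT, which were apart but not called (log2 0.44, SE 0.15, adjusted p = 0.099, edgeR). It measured 215, 338 and 304 CPM in CONS VEH and 285, 307 and 309.7 CPM in CONS CORT, which overlapped (log2 0.07, SE 0.15, adjusted p = 0.81, edgeR).

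Whether the pattern of CORT mattered was addressed directly. The difference of the CONS and PULS responses was called for 0 of 8 members by edgeR, against 0.0284% of all genes tested. At an unadjusted p below 0.05 edgeR gave 3 members, and DESeq2 called 1. That member was Slc25a15 (log2 0.97, SE 0.20, adjusted p = 0.071, edgeR), which passed with DESeq2 (adjusted p = 0.0012), with no filter on low counts (adjusted p = 0.011, edgeR), without CONS VEH replicate 1 (adjusted p = 0.037, edgeR) and without PULS CORT replicate 1 (adjusted p = 0.030, edgeR).

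Set side by side, PULS CORT and CONS CORT differed for 1 of 8 members, again Slc25a15, which was 2.11-fold lower in PULS CORT (log2 -1.08, SE 0.14, adjusted p = 0.0018, edgeR). Of all genes tested, 0.887% were called in this comparison. The vehicle groups differed for 0 of 8 members by edgeR, with 2 (Ass1 and Gls2) at an unadjusted p below 0.05, where 0% of all genes were called. DESeq2 called 1 there, Ass1 (log2 -0.61, adjusted p = 0.0013), and edgeR called both without CONS VEH replicate 1 (log2 -0.72 for Ass1 and -0.70 for Gls2, adjusted p = 0.039 and 0.040). Of the 8 members, 0 were higher in PULS VEH than in CONS VEH (median log2 -0.19, against 0.01 for all genes). Each PULS change is thus taken from a lower vehicle level. Glud1 and Nags, called with PULS only, differed between PULS CORT and CONS CORT by 0.09 (log2, SE 0.12) and 0.39 (SE 0.14), neither called.

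pSer2 Pol2 marks elongating polymerase, and its occupancy over the first 10 kb of a gene is a measure of transcription at the moment of sampling. Occupancy is given as the deposited log2 value over 1 region per gene, and levels are compared between genes only for regions of 10 kb, which leaves out Nags (4134 b).

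At the pulse peak, pSer2 Pol2 occupancy was raised at Slc25a15, Ass1 and Arg1, and at the nadir no member was called. PEAK_140 against VEH called 3 of 9 members, all raised, where 1.01% of 16568 genes tested had a called region. NADIR_180 against VEH called 0 of 9 by limma, with 2 members at an unadjusted p below 0.05, against 0.00604% of all genes. CONS_140 against VEH called 4 of 9 (Cps1, Ass1, Arg1 and Slc25a15), all raised, against 0.821%, and CONS_180 against VEH called 2 of 9 (Ass1 and Arg1), both raised, against 0.235%. The median log2 change of the 9 members was 0.20, -0.05, 1.08 and 0.83 in these 4 comparisons, and that of all regions was -0.05, 0.01, 0.15 and 0.01.

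These counts rested on few libraries. Without 1 library the 3 calls at PEAK_140 became 0 (without the VEH library of 180 min or PEAK_140 replicate 1) or 1 (without the VEH library of 140 min or either NADIR_180 replicate). The 4 calls at CONS_140 became 1 without the VEH library of 180 min, either NADIR_180 replicate or CONS_140 replicate 1, and 7 without CONS_140 replicate 2. The 2 calls at CONS_180 became 0 without the VEH library of 180 min or either CONS_180 replicate, and 1 without any of the other 7 libraries. The 0 calls at NADIR_180 became 1, Arg1, without either CONS_140 replicate. A fit on only the groups compared called 0 members for PEAK_140, 0 for CONS_140 and 1 for CONS_180.

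**Figure D2:**
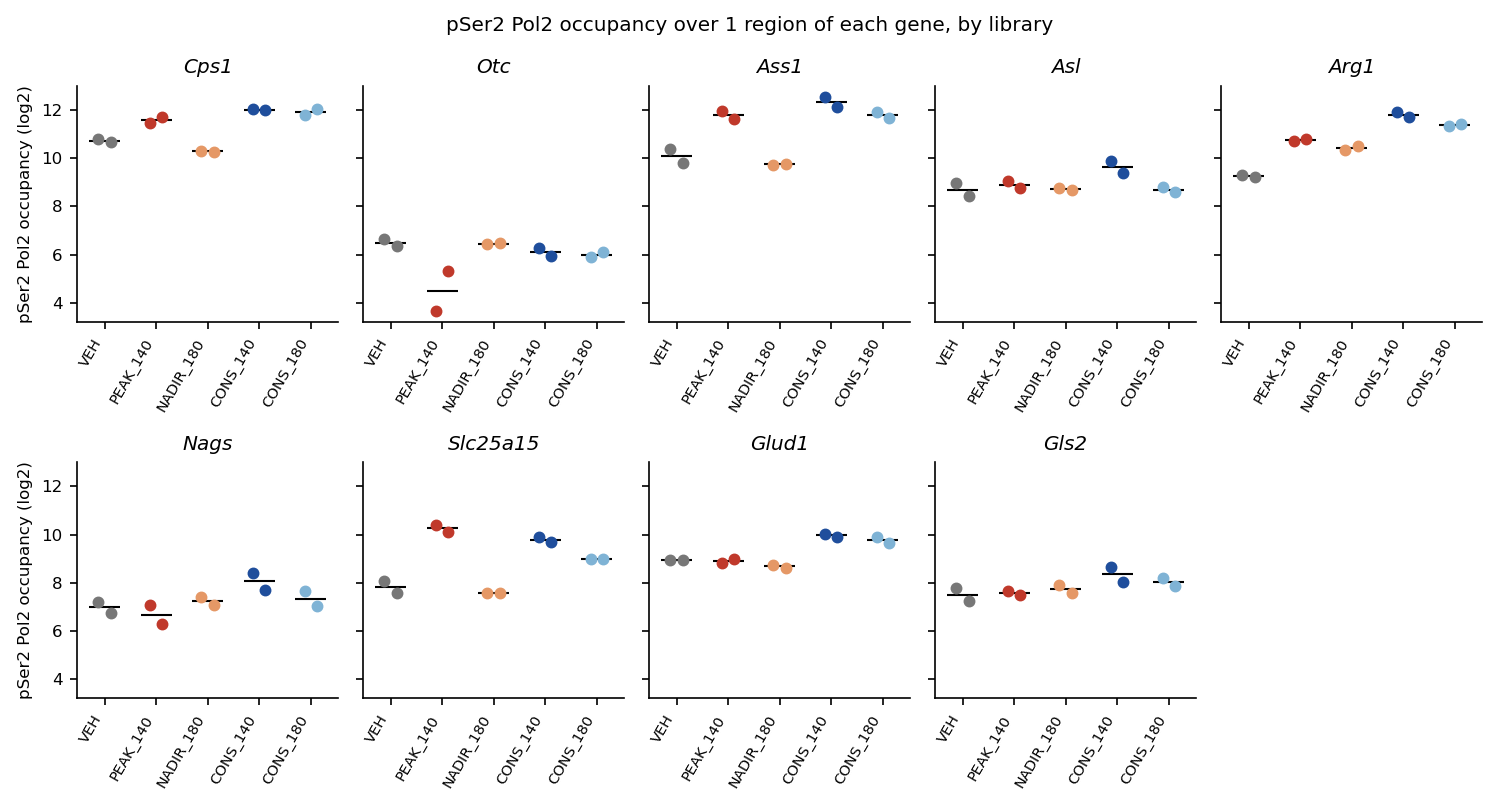
Deposited pSer2 Pol2 occupancy (log2, vertical axis shared by all panels) over 1 region of each of the 9 members, with 1 point per library and a line at the mean of the 2 libraries of each group. Ass1 and Slc25a15 stood high at PEAK_140 and near or below the lower VEH value at NADIR_180, and Arg1 stayed above VEH at NADIR_180 with values of 10.33 and 10.49. Otc was lowest in the 2 PEAK_140 libraries, and its CONS libraries (5.88 to 6.27) were also below VEH.

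Slc25a15 occupancy (chr16:74534130-74544130, rn6) was 8.07 and 7.58 in VEH, 10.41 and 10.12 at PEAK_140, 7.56 and 7.59 at NADIR_180, 9.89 and 9.69 at CONS_140 and 8.99 and 8.98 at CONS_180. It was the member with the greatest change at the peak, 5.43-fold (log2 2.44, SE 0.30, adjusted p = 0.0035, limma), and the nadir libraries lay at the lower of the VEH values. At CONS_140 the change was 3.90-fold (log2 1.96, SE 0.30, adjusted p = 0.012, limma) and at CONS_180 it was not called (log2 1.16, SE 0.30, adjusted p = 0.32, limma). The peak call was lost without the VEH library of 180 min (adjusted p = 0.062, limma) or PEAK_140 replicate 1 (adjusted p = 0.058, limma), and the CONS_140 call without the VEH library of 180 min, either NADIR_180 replicate or CONS_140 replicate 1 (adjusted p from 0.059 to 0.089, limma).

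Ass1 occupancy (chr3:10365826-10375826, rn6) was 10.39 and 9.80 in VEH, 11.95 and 11.63 at PEAK_140, 9.73 and 9.77 at NADIR_180, 12.54 and 12.10 at CONS_140 and 11.91 and 11.65 at CONS_180. The peak and both constant groups were above VEH, and the nadir libraries were below it. The log2 change was 1.69 at PEAK_140 (SE 0.28, adjusted p = 0.015, limma), 2.22 at CONS_140 (SE 0.28, adjusted p = 0.0048, limma), 1.69 at CONS_180 (SE 0.28, adjusted p = 0.044, limma) and -0.34 at NADIR_180 (SE 0.28, adjusted p = 1, limma). Over this region the calls at PEAK_140 and CONS_180 were each lost without any 1 of the 10 libraries (adjusted p from 0.056 to 0.17 and from 0.073 to 0.50, limma), and the call at CONS_140 without the VEH library of 180 min, either NADIR_180 replicate or CONS_140 replicate 1 (adjusted p from 0.054 to 0.097, limma). The greatest called changes over its 3 regions were 1.84 at PEAK_140 (chr3:10361240-10371240, SE 0.29, adjusted p = 0.011, limma) and 2.42 at CONS_140 (chr3:10346123-10354365, SE 0.30, adjusted p = 0.0044, limma). With the replicate number as a block, those same regions were called at CONS_180 as well (adjusted p = 0.044 and 0.031, from 0.052 and 0.055 without the block, limma).

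Arg1 occupancy (chr1:21525421-21535421, rn6) was 9.29 and 9.23 in VEH, 10.71 and 10.77 at PEAK_140, 10.33 and 10.49 at NADIR_180, 11.90 and 11.69 at CONS_140 and 11.31 and 11.41 at CONS_180. All 8 CORT libraries were above both VEH libraries, the nadir included, and the 5 groups did not overlap. The log2 change was 1.48 at PEAK_140 (SE 0.24, adjusted p = 0.012, limma), 2.54 at CONS_140 (SE 0.24, adjusted p = 0.00068, limma) and 2.10 at CONS_180 (SE 0.24, adjusted p = 0.0035, limma). The CONS_140 call held without each library in turn. The PEAK_140 call was lost without either replicate of VEH, PEAK_140 or NADIR_180 (adjusted p from 0.053 to 0.083, limma), and the CONS_180 call without the VEH library of 180 min or either CONS_180 replicate (adjusted p from 0.089 to 0.12, limma). At the nadir the change was 1.15 (SE 0.24, adjusted p = 0.50, limma), not called over all regions but called over the regions whose mean lay above the median (adjusted p = 0.0018, limma) and without either CONS_140 replicate (adjusted p = 0.022, limma).

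Cps1 held the highest VEH occupancy of the 8 members with a 10 kb region (chr9:74124016-74134016, rn6), at 10.78 and 10.66, with 11.47 and 11.70 at PEAK_140, 10.31 and 10.27 at NADIR_180, 12.02 and 11.99 at CONS_140 and 11.77 and 12.04 at CONS_180. Over this region the nadir libraries were the lowest of the 10. The change was called at CONS_140 (log2 1.29, SE 0.23, adjusted p = 0.023, limma) but not at PEAK_140 (log2 0.86, SE 0.23, adjusted p = 0.16, limma) or CONS_180 (log2 1.18, SE 0.23, adjusted p = 0.084, limma), both of which passed once each library was centred on its median (adjusted p = 0.030 and 0.018, limma). The CONS_140 call held only without CONS_140 replicate 2 or either PEAK_140 replicate, and was lost without any of the other 7 libraries (adjusted p from 0.057 to 0.13, limma). At a second, shorter region towards the end of the gene (chr9:74232497-74235700, 3203 b), the CONS_140 change of 1.35 was not called (adjusted p = 0.056, limma), but was with the replicate number as a block (adjusted p = 0.041, limma) and after centring (log2 1.21, adjusted p = 0.029, limma). There the nadir libraries (9.03 and 9.12) were above those of VEH (8.55 and 8.26) and PEAK_140 (8.53 and 8.71).

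Otc occupancy (chrX:13591069-13601069, rn6) was 6.64 and 6.36 in VEH, 3.66 and 5.32 at PEAK_140, 6.44 and 6.47 at NADIR_180, 6.27 and 5.95 at CONS_140 and 5.88 and 6.12 at CONS_180. Both PEAK_140 libraries were below the other 8, and they differed from each other by more than the libraries of any other group. The CONS_140 and CONS_180 libraries were also below both VEH and both nadir libraries, with log2 changes against VEH of -0.40 and -0.51 (SE 0.47 for each) that were not called. The peak change was -2.01 (log2, SE 0.47, adjusted p = 0.092, limma), not called without a block and called with the replicate number as a block (adjusted p = 0.043, limma) or after centring (log2 -1.92, adjusted p = 0.042, limma). It was also called without PEAK_140 replicate 2 (log2 -2.84, adjusted p = 0.024, limma).

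The 4 members that remain were not called against VEH in any group. Glud1 occupancy (chr16:10662021-10672021) was 8.96 and 8.95 in VEH, 8.82 and 8.97 at PEAK_140, 8.75 and 8.62 at NADIR_180, 10.03 and 9.91 at CONS_140 and 9.91 and 9.66 at CONS_180. The CONS libraries were above all others, with a log2 change of 1.02 at CONS_140 (SE 0.27, adjusted p = 0.20, limma) and 0.83 at CONS_180 (SE 0.27, adjusted p = 0.73, limma), and the PEAK_140 libraries overlapped VEH. Asl occupancy (chr12:30165694-30175694) was 8.95 and 8.44 in VEH, 9.05 and 8.74 at PEAK_140, 8.75 and 8.68 at NADIR_180, 9.87 and 9.36 at CONS_140 and 8.78 and 8.61 at CONS_180. Only the CONS_140 libraries of Asl were apart from VEH (log2 0.92, SE 0.32, adjusted p = 0.47, limma).

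Nags occupancy (chr10:90085559-90089693) was 7.21 and 6.76 in VEH, 7.08 and 6.29 at PEAK_140, 7.42 and 7.09 at NADIR_180, 8.42 and 7.71 at CONS_140 and 7.66 and 7.03 at CONS_180. Gls2 occupancy (chr7:2605719-2615719) was 7.78 and 7.25 in VEH, 7.64 and 7.51 at PEAK_140, 7.90 and 7.57 at NADIR_180, 8.65 and 8.05 at CONS_140 and 8.21 and 7.86 at CONS_180. CONS_140 was the highest group for both, with log2 changes of 1.08 for Nags (SE 0.41, adjusted p = 0.54, limma) and 0.84 for Gls2 (SE 0.35, adjusted p = 0.54, limma), and for both CONS_140 replicate 1 was above replicate 2. Without CONS_140 replicate 2, Asl (log2 1.17), Glud1 (log2 1.08) and Gls2 (log2 1.14) were called at CONS_140 (adjusted p = 0.019, 0.0036 and 0.044, limma).

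Within the pulse, occupancy over the described region fell from peak to nadir at 3 of 9 members, Slc25a15, Ass1 and Cps1, where 0.507% of all genes had a called region. At the shorter Cps1 region (chr9:74232497-74235700) the nadir was the higher, with a log2 difference of -0.45 (SE 0.28) that was not called. PEAK_140 exceeded NADIR_180 by 2.69 for Slc25a15 (log2, SE 0.30, adjusted p = 0.0030, limma), by 2.04 for Ass1 (SE 0.28, adjusted p = 0.0089, limma) and by 1.29 for Cps1 (SE 0.23, adjusted p = 0.033, limma). Arg1 differed by 0.33 (log2, SE 0.24, adjusted p = 1, limma), the smallest change of the 4 members with raised mRNA in both patterns, and Otc by -1.96 (SE 0.47, adjusted p = 0.16, limma). The count was 0 without PEAK_140 replicate 1 or NADIR_180 replicate 1, and 0 in a fit on only the groups compared. Cps1 was also lost after quantile normalization (log2 0.96, adjusted p = 0.067, limma).

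Under constant infusion, CONS_140 and CONS_180 differed at 0 of 9 members by limma (3 at an unadjusted p below 0.05, and 0% of all genes called). The described regions of all 9 were higher at CONS_140 (median log2 0.44), where the median of all regions was 0.17. After each library was centred on its median, Cps1 and Otc were lower at CONS_140 (log2 -0.07 for each). Without CONS_140 replicate 2, Asl and Slc25a15 were called (adjusted p = 0.019 and 0.040, limma). The time effect in PULS against that in CONS was called for 0 of 9 by limma (5 at an unadjusted p below 0.05), against 0.0664% of all genes. Its values were 1.89 for Slc25a15 (log2, SE 0.42, adjusted p = 0.20, limma), 1.5 for Ass1 (SE 0.40, adjusted p = 0.31, limma) and 1.19 for Cps1 (SE 0.32, adjusted p = 0.32, limma), and -0.11 for Arg1 (SE 0.33, adjusted p = 0.84, limma). Slc25a15, Ass1 and Cps1 were called after each library was centred on its median and also without CONS_140 replicate 2.

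At matched times, PEAK_140 and CONS_140 differed at 0 of 9 members by limma (8 at an unadjusted p below 0.05), against 0.0302% of all genes. Arg1 was 1.06 lower (log2 -1.06, SE 0.24, adjusted p = 0.14, limma) and Glud1 1.08 lower (log2 -1.08, SE 0.27, adjusted p = 0.18, limma) at the peak than in CONS_140, and without CONS_140 replicate 2 the comparison called 7 members. NADIR_180 was below CONS_180 at 2 of 9 members, against 0.175% of all genes, namely Ass1 (log2 -2.03, SE 0.28, adjusted p = 0.015, limma) and Cps1 (log2 -1.61, SE 0.23, adjusted p = 0.015, limma). That count became 0 without NADIR_180 replicate 1 or either CONS_180 replicate, 1 without the VEH library of 180 min or NADIR_180 replicate 2, 5 over the regions whose mean lay above the median and 0 in a fit on only the groups compared.

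**Figure D3:**
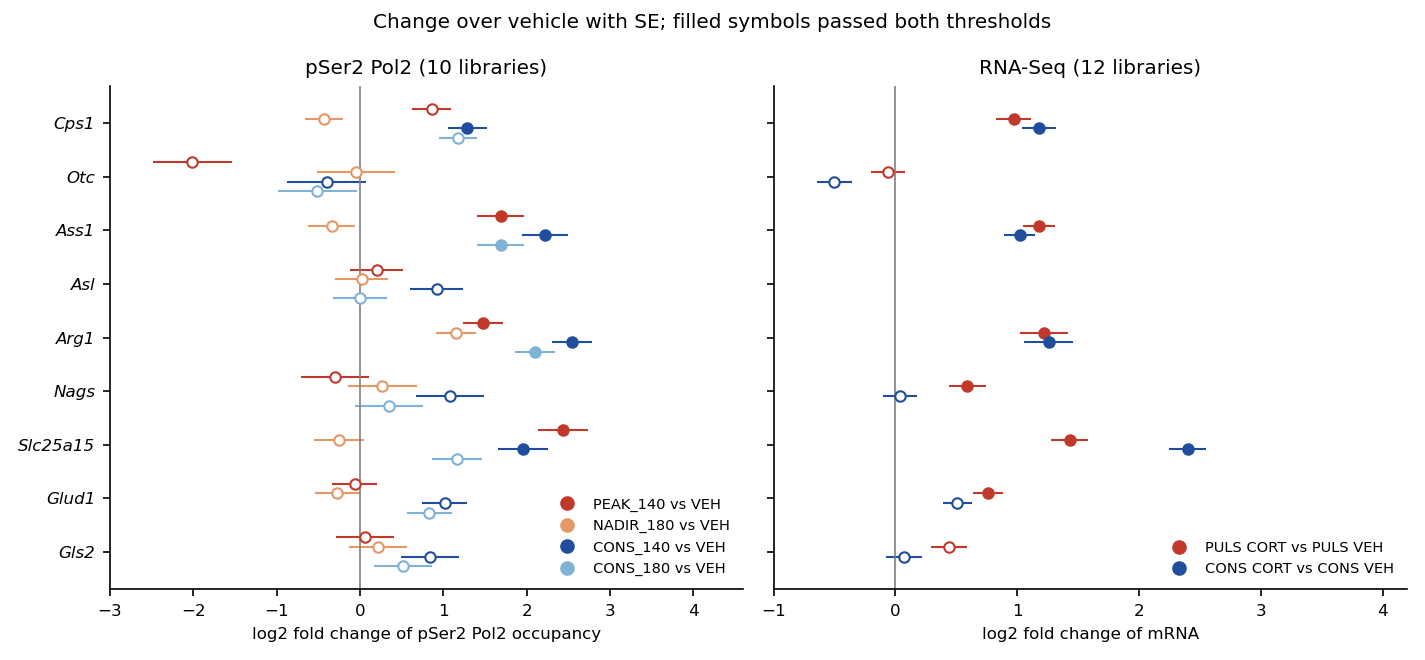
Log2 fold change over vehicle (horizontal axis) with its SE for each member, for pSer2 Pol2 occupancy in the 4 CORT groups (left) and for mRNA in both patterns (right). Filled symbols passed both thresholds. Slc25a15, Ass1 and Arg1 were filled in both assays for both patterns, while the largest negative value, Otc at PEAK_140 with -2.01, was not called and had mRNA changes of -0.06 and -0.50.

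Beside one another, the assays matched in part. Slc25a15, Ass1 and Arg1 were called raised in mRNA and in pSer2 Pol2 in both patterns, and Cps1 in mRNA in both but in pSer2 Pol2 at CONS_140 alone. Glud1 mRNA was called raised with PULS while its occupancy at PEAK_140 (log2 -0.06, SE 0.27) and NADIR_180 (log2 -0.27, SE 0.27) was not above VEH. With CONS its occupancy was 1.02 higher at CONS_140 and its mRNA stayed under the fold threshold. Nags mRNA was also called with PULS only, and its occupancy was highest in CONS_140, with no call in any group.

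GR is the ligand-activated transcription factor through which CORT acts, and it binds DNA directly at glucocorticoid response elements or through other factors. Of the 21 regions near members, 9 lay at Ass1, 3 at Cps1, 3 at Arg1, 2 at Slc25a15, 2 at Glud1, 1 at Asl and 1 at Gls2, at 98.5 to 48825 b from the nearest TSS, and 12 of 21 lay upstream of that TSS. Among the 12, the Ass1 region at -6721.5 b and the Slc25a15 region at -887.5 b lay after another start of the same gene. The authors' annotation named another gene as nearest for both Glud1 regions (Fam35a and Fam25a) and for 1 region within an Ass1 intron (RF00568).

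The regions at Cps1, Asl and Ass1 centred within 250 b of a TSS gave reason to show those promoters, here from RefSeq on build GRCr8, with 250 bases before and 50 after the start. The deposited regions are on build rn6 and the RefSeq start can differ from the start used there, so the overlap of the GR region with these bases was not tested. The sequences run 5′ to 3′ along the gene, at chr9:76063613-76063912 for Cps1, chr12:32295658-32295957 for Asl and chr3:35149480-35149779 for Ass1, all on the plus strand of GRCr8, and capitals mark motif matches on either strand.
Cps1: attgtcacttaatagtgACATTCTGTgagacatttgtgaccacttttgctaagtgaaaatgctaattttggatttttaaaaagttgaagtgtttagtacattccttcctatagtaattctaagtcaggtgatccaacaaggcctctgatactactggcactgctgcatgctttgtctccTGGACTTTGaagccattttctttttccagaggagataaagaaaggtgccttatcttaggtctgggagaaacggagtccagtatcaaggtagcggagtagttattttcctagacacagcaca
Asl: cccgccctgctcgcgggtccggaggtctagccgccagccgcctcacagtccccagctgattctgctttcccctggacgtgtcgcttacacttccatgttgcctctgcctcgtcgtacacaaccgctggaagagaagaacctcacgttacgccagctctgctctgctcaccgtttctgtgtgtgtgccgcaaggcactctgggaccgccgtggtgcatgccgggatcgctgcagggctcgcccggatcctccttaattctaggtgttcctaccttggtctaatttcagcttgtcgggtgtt
Ass1: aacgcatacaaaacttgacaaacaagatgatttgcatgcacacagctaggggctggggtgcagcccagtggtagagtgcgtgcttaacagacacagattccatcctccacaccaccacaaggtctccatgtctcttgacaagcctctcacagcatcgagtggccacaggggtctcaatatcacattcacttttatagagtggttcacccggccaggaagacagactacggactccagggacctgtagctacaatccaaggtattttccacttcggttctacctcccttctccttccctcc

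The Cps1 promoter held ACATTCTGT from base -233, a match to ACANNNTGT (the core of the glucocorticoid response element), and TGGACTTTG from base -71, which is CAAAGTCCA (an HNF4 motif) on the other strand. The Asl and Ass1 promoters held no match to ACANNNTGT, TGTTCT (one arm of the element), TTGCNNAA (C/EBP) or CAAAGTCCA. Of all 33469 RefSeq promoters of the same length, 6.86% held ACANNNTGT, 20.7% TGTTCT, 10.6% TTGCNNAA and 0.391% CAAAGTCCA. TGTTCT and ACANNNTGT can overlap, and a match is a description of letters and not of a bound site.

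GR occupancy near the members rose with CORT at the peak and in both constant groups, and was back near VEH at the nadir. The authors had merged the enriched regions of the groups into 1 set. Their peak lists held 3210 peaks for PEAK_140, 1723 for CONS_140 and 2428 for CONS_180, but 118 for VEH and 73 for NADIR_180. A rise over VEH in the former groups, and little at the nadir, was therefore partly set by that choice of regions, to an extent that was not tested. PEAK_140 against VEH called 13 of 21 regions, all raised, where 80.5% of all 3981 regions were called. NADIR_180 called 0 of 21 by limma (2 at an unadjusted p below 0.05), against 7.79%, CONS_140 called 13 of 21, against 65.1%, and CONS_180 called 11 of 21, against 68.2%, all raised. The median log2 change of the 21 regions was 3.21, 0.58, 3.15 and 3.35 in these groups, against 4.17, 0.84, 3.38 and 3.46 for all regions. The share of regions called near the members was not above the background in any of the 4 comparisons.

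Most GR regions moved together, and centring each library on its median removes that common rise, so a change after centring is relative to the other regions. After centring, 0 of the 13, 13 and 11 calls remained for PEAK_140, CONS_140 and CONS_180, and the sign turned at 5, 4 and 4 of them, among them Cps1 at -166.5 b from the TSS in all 3. The 3, 1 and 2 regions called after centring were all lowered. The 11 calls at CONS_180 became 7 without CONS_180 replicate 1, and the 0 calls at NADIR_180 became 1 without the VEH library of 140 min and 2 without NADIR_180 replicate 2. GR changes below are on the deposited scale, where values below 0 stand for few tags, so a fold there is a fitted value and no bound.

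**Figure D4:**
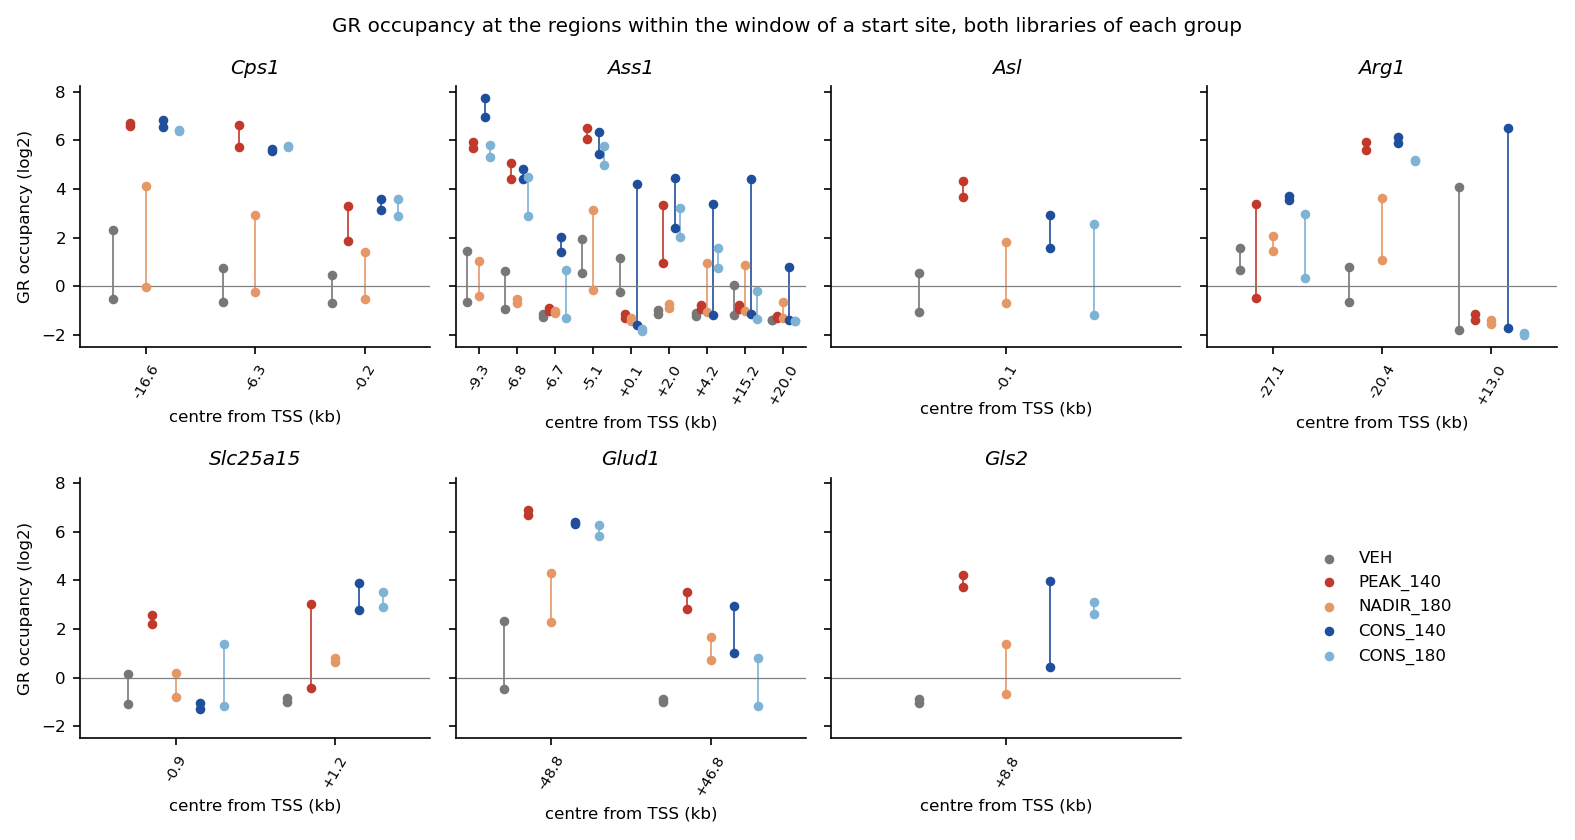
Deposited GR occupancy (log2, vertical axis) in both libraries of each group, joined by a line, at the 21 regions, placed by the distance of the centre from the nearest TSS in kb (horizontal axis, in order and not to scale). The upstream regions of Cps1 at -16599.5 and -6333 b, of Arg1 at -20362.5 b and of Ass1 at -9319.5 and -5063.5 b stood at 4.99 or more at PEAK_140, CONS_140 and CONS_180, and several regions inside Ass1 were high only in CONS_140 replicate 1.

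Cps1 carried 3 upstream regions. The farthest (chr9:74107104-74107729, rn6, intergenic, centre -16599.5 b from the TSS) measured 2.32 and -0.51 in VEH, 6.60 and 6.71 at PEAK_140, 4.11 and -0.05 at NADIR_180, 6.54 and 6.82 at CONS_140 and 6.38 and 6.42 at CONS_180. The next (chr9:74117355-74118011, intergenic, -6333 b) measured 0.76 and -0.67, 5.74 and 6.64, 2.92 and -0.22, 5.56 and 5.63 and 5.78 and 5.71 in the same order. At both, the peak and constant libraries were above all VEH and nadir libraries, and NADIR_180 replicate 1 was above replicate 2. The change at -6333 b was 6.14 at PEAK_140 (log2, SE 0.95, adjusted p = 0.00050, limma), 5.55 at CONS_140 (SE 0.95, adjusted p = 0.0011, limma) and 5.70 at CONS_180 (SE 0.95, adjusted p = 0.0011, limma).

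The Cps1 promoter region (chr9:74123537-74124162, centre -166.5 b) was weaker, with -0.71 and 0.46 in VEH, 3.28 and 1.86 at PEAK_140, 1.42 and -0.52 at NADIR_180, 3.58 and 3.12 at CONS_140 and 3.58 and 2.87 at CONS_180. Its change was 2.70 at PEAK_140 (log2, SE 0.88, adjusted p = 0.019, limma) and 3.48 at CONS_140 (SE 0.88, adjusted p = 0.0074, limma), of which the first was below and the second above the median of all regions. The call was lost at PEAK_140 without the VEH library of 140 min or PEAK_140 replicate 1 (adjusted p = 0.11 and 0.12, limma), at CONS_140 without that VEH library (adjusted p = 0.054, limma) and at CONS_180 without it or CONS_180 replicate 1 (adjusted p = 0.062 and 0.058, limma).

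Ass1 carried 9 regions, 3 of them in the 10 kb before its first start. The one at -9319.5 b (chr3:10384833-10385458, within the last exon, 14 of 14, of a transcript of another gene) measured 1.45 and -0.66 in VEH, 5.68 and 5.95 at PEAK_140, -0.39 and 1.05 at NADIR_180, 7.75 and 6.98 at CONS_140 and 5.32 and 5.79 at CONS_180. The one at -6790.5 b (chr3:10382419-10382814, intergenic) measured 0.63 and -0.93, 5.08 and 4.43, -0.69 and -0.52, 4.43 and 4.84 and 2.90 and 4.51 in the same order. The one at -5063.5 b (chr3:10380577-10381202, intergenic) measured 1.95 and 0.56, 6.51 and 6.06, 3.14 and -0.14, 6.33 and 5.45 and 5.75 and 4.99. All 3 were called at PEAK_140 (log2 5.42, 4.91 and 5.04), CONS_140 (log2 6.97, 4.79 and 4.64) and CONS_180 (log2 5.16, 3.86 and 4.12).

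The other 6 Ass1 regions lay in introns, and 4 of them were not called in any group against VEH. The one at 123.5 b after the first start (chr3:10375439-10375966, intron 1 of 15) measured 1.16 and -0.23 in VEH, -1.31 and -1.13 at PEAK_140, -1.44 and -1.31 at NADIR_180, 4.2 and -1.60 at CONS_140 and -1.83 and -1.77 at CONS_180. The regions at 4224.5 b (chr3:10349877-10350404, intron 8 of 14), 15205.5 b (chr3:10338896-10339423, intron 12 of 15) and 20039.5 b (chr3:10334062-10334589, intron 12 of 14) measured 3.40 and -1.19, 4.42 and -1.15 and 0.81 and -1.39 at CONS_140. In each of these 4, CONS_140 replicate 1 was the highest of the 10 libraries and replicate 2 was below 0. Without CONS_140 replicate 2 all 4 were called at CONS_140 (adjusted p from 0.0040 to 0.014, limma), and without either CONS_140 replicate the region at 123.5 b was called lowered at PEAK_140 (adjusted p = 0.046 and 0.029, limma) and CONS_180 (adjusted p = 0.018 and 0.011, limma).

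Of the other intronic Ass1 regions, the one at 1956.5 b (chr3:10369020-10369547, intron 1 of 14) was called at PEAK_140 (log2 3.21, SE 1.00, adjusted p = 0.016, limma), CONS_140 (log2 4.47, SE 1.00, adjusted p = 0.0042, limma) and CONS_180 (log2 3.68, SE 1.00, adjusted p = 0.011, limma). It was lost at PEAK_140 without either VEH library or PEAK_140 replicate 1 (adjusted p from 0.055 to 0.12, limma) and at CONS_180 without the VEH library of 180 min or CONS_180 replicate 2 (adjusted p = 0.056 and 0.070, limma). It measured -0.97 and -1.14 in VEH, 3.35 and 0.96 at PEAK_140, -0.91 and -0.75 at NADIR_180, 4.45 and 2.39 at CONS_140 and 2.04 and 3.22 at CONS_180. The one at -6721.5 b from a downstream start (chr3:10360823-10361350, intron 4 of 14) was called at CONS_140 only (log2 2.93, SE 0.88, adjusted p = 0.016, limma), with 2.03 and 1.41 there and values from -1.31 to 0.68 in the other 8 libraries, and was lost without either VEH library (adjusted p = 0.072 and 0.077, limma).

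Arg1 carried a strong region at -20362.5 b (chr1:21504746-21505371, intergenic), with 0.78 and -0.63 in VEH, 5.95 and 5.62 at PEAK_140, 3.63 and 1.07 at NADIR_180, 5.90 and 6.16 at CONS_140 and 5.16 and 5.19 at CONS_180. Its change was 5.71 at PEAK_140 (log2, SE 0.82, adjusted p = 0.00035, limma), 5.96 at CONS_140 (SE 0.82, adjusted p = 0.00035, limma), 5.10 at CONS_180 (SE 0.82, adjusted p = 0.00087, limma) and 2.28 at NADIR_180 (SE 0.82, adjusted p = 0.17, limma). Both nadir libraries were above both VEH libraries here, as was pSer2 Pol2 over the gene.

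The other Arg1 regions were uneven. At -27135.5 b (chr1:21498022-21498549, intergenic) the values were 0.67 and 1.59 in VEH, -0.49 and 3.38 at PEAK_140, 3.71 and 3.54 at CONS_140 and 2.99 and 0.33 at CONS_180, with no call. At 12950.5 b, the end of the transcript (chr1:21538108-21538635), the first library of VEH (4.09) and of CONS_140 (6.49) stood apart from the other 8, which lay between -2.01 and -1.15.

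At Slc25a15, the promoter region (chr16:74533045-74533440, -887.5 b) measured 0.16 and -1.09 in VEH, 2.20 and 2.58 at PEAK_140, 0.21 and -0.81 at NADIR_180, -1.27 and -1.05 at CONS_140 and 1.40 and -1.15 at CONS_180. It was called at PEAK_140 alone (log2 2.86, SE 1.00, adjusted p = 0.025, limma), and that call was lost without the VEH library of 180 min or either PEAK_140 replicate (adjusted p = 0.15, 0.068 and 0.093, limma). A region in intron 2 of 6 (chr16:74535009-74535634, 1191.5 b) measured -0.85 and -1.01 in VEH, 3.05 and -0.44 at PEAK_140, 0.63 and 0.81 at NADIR_180, 3.90 and 2.78 at CONS_140 and 3.52 and 2.93 at CONS_180. It was called at CONS_140 (log2 4.27, SE 1.06, adjusted p = 0.0070, limma) and CONS_180 (log2 4.15, SE 1.06, adjusted p = 0.0081, limma), not at PEAK_140 (log2 2.24, SE 1.06, adjusted p = 0.079, limma). Without PEAK_140 replicate 2 it was called there too (adjusted p = 0.0049, limma), and without CONS_180 replicate 1 it was not called at CONS_180 (adjusted p = 0.053, limma). The direct comparison of PEAK_140 with CONS_140 was not called at either region (log2 3.55, adjusted p = 0.26, and log2 -2.03, adjusted p = 0.42, limma).

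The Asl promoter region (chr12:30165398-30165793, -98.5 b) measured 0.53 and -1.08 in VEH, 4.34 and 3.66 at PEAK_140, 1.80 and -0.69 at NADIR_180, 2.91 and 1.57 at CONS_140 and 2.58 and -1.19 at CONS_180, and was called at PEAK_140 only (log2 4.28, SE 1.34, adjusted p = 0.016, limma), a call lost without the VEH library of 180 min or PEAK_140 replicate 1 (adjusted p = 0.10 and 0.081, limma). The Gls2 region (chr7:2614275-2614670, intron 7 of 17, 8753.5 b) measured -0.87 and -1.04 in VEH, 3.72 and 4.23 at PEAK_140, 1.37 and -0.65 at NADIR_180, 3.96 and 0.43 at CONS_140 and 2.64 and 3.11 at CONS_180. It was called in the peak and both constant groups (log2 4.93, 3.15 and 3.83), and was lost at CONS_140 without 7 of the 10 libraries (adjusted p from 0.056 to 0.25, limma; all but CONS_140 replicate 2 and the NADIR_180 replicates) and at CONS_180 without either VEH or either CONS_180 library (adjusted p from 0.055 to 0.078, limma). Gls2 itself was called in neither pSer2 Pol2 nor mRNA.

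The strong region at -48825 b from Glud1 (chr16:10612853-10613539, in intron 2 of 10 of Fam35a) measured 2.33 and -0.47 in VEH, 6.90 and 6.69 at PEAK_140, 4.30 and 2.30 at NADIR_180, 6.34 and 6.41 at CONS_140 and 6.30 and 5.84 at CONS_180, and was called in the peak and both constant groups (log2 5.86, 5.44 and 5.14). The other, at 46775.5 b (chr16:10708599-10708994, intergenic), was called at PEAK_140 (log2 4.11) and CONS_140 (log2 2.93, lost without either VEH library or CONS_140 replicate 1, with adjusted p from 0.076 to 0.12, limma).

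Within the pulse, 11 of 21 regions were higher at PEAK_140 than at NADIR_180, where 69.3% of all regions were called, and 9 of 21 were lower at NADIR_180 than at CONS_180, against 49.6%. These counts became 5 without PEAK_140 replicate 1 or NADIR_180 replicate 2, and 4, 2 and 3 without NADIR_180 replicate 2, CONS_180 replicate 1 and CONS_180 replicate 2, and both became 0 after centring. CONS_140 and CONS_180 differed at 0 of 21 by limma (3 at an unadjusted p below 0.05, 0% of all regions, and 1 without CONS_140 replicate 2), and PEAK_140 and CONS_140 at 0 of 21 (2 at an unadjusted p below 0.05), against 0.0502%. The time effect in PULS exceeded that in CONS at 5 of 21 regions (3 at Ass1, 1 at Cps1 and 1 at Slc25a15), against 44.0%, a count that fell to 0 without PEAK_140 replicate 1, to 1 without PEAK_140 replicate 2 or either CONS_180 replicate, and to 3 without NADIR_180 replicate 2.

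The peak lists of the single groups came from the same libraries, and the regions had been merged from enriched regions of these groups. They are therefore no independent view. Of the 21 regions, 11 overlapped a peak listed for PEAK_140, 0 for NADIR_180, 14 for CONS_140, 8 for CONS_180 and 1 for VEH, the Arg1 region at the transcript end. The share listed for CONS_140 and for no other CORT group was 8 of 21 regions (38.1%), 6 at Ass1 and 2 at Arg1, beside 264 of 3981 (6.63%) over the whole table. In all 8 the value of CONS_140 replicate 1, the deepest GR library, was above that of replicate 2 (by 0.17 to 8.21 log2 units, median 3.40) and was the highest of the 10 libraries. Over all regions so listed, 251 of 264 had replicate 1 above replicate 2. A listing for CONS_140 alone favours high values in that group, and the part of CONS_140 replicate 1 in these listings was not tested.

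Genes that feed the cycle or use its products were described from lists of pathway members. In mRNA, 4.23% of all genes tested were called with PULS and 9.20% with CONS. In pSer2 Pol2 the shares against VEH were 1.01% at PEAK_140, 0.821% at CONS_140 and 0.235% at CONS_180. Got1, which makes the aspartate that Ass1 uses, was the only one of 7 tested genes of aspartate supply and fumarate return called in mRNA against vehicle. Its mRNA measured 120.1, 111 and 68.5 CPM in PULS VEH, 369.6, 286 and 297 CPM in PULS CORT, 92.5, 85.1 and 128 CPM in CONS VEH and 791, 1058 and 977 CPM in CONS CORT. It rose 3.18-fold with PULS (log2 1.67, SE 0.20, adjusted p = 0.00016, edgeR) and 9.23-fold with CONS (log2 3.21, SE 0.21, adjusted p = 8.6e-08, edgeR), and was 2.97-fold lower in PULS CORT than in CONS CORT (log2 -1.57, adjusted p = 0.0015, edgeR). Its pSer2 Pol2 occupancy rose at PEAK_140 (log2 1.83, adjusted p = 0.020, limma) and CONS_140 (log2 1.72, adjusted p = 0.030, limma), was higher at the peak than at the nadir (log2 3.11, adjusted p = 0.0030, limma) and was lower at the nadir than at CONS_180 (log2 -3.0, adjusted p = 0.0034, limma). The PEAK_140 call was lost without any 1 of the 10 libraries (adjusted p up to 0.24, limma) and the CONS_140 call without 7 of them (adjusted p up to 0.22, limma).

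Of 9 tested genes that use or carry arginine and ornithine, 4 rose in mRNA with PULS and 3 with CONS, and 0 fell, against 4.23% and 9.20% of all genes called. Oat, which degrades ornithine (log2 0.70), and Odc1, which turns it into putrescine (log2 0.75), rose with PULS. The arginine carriers Slc7a2 (log2 0.74 and 1.74) and Slc25a29 (log2 2.09 and 1.40) rose with both, and the antizyme inhibitor Azin1 (log2 1.30) with CONS. Slc25a29 rested on few reads, at 2, 2 and 7 in PULS VEH against 18, 15 and 8 in PULS CORT. In the constant arms it had 14, 8 and 6 reads with VEH and 30, 26 and 15 with CORT. Slc7a2 mRNA was lower in PULS CORT than in CONS CORT (log2 -1.06, adjusted p = 0.014, edgeR), a call lost without CONS CORT replicate 1 or PULS CORT replicate 2 or 3 (adjusted p = 0.065, 0.12 and 0.082, edgeR). Occupancy of Oat by pSer2 Pol2 was lowered at PEAK_140 (log2 -2.52, SE 0.48, adjusted p = 0.033, limma), opposite in sign to its mRNA, and that of Slc7a2 was raised at CONS_140 (log2 1.28, SE 0.25, adjusted p = 0.046, limma). Both occupancy calls were lost without any 1 of 9 libraries (the exceptions were PEAK_140 replicate 1 for Oat and CONS_140 replicate 2 for Slc7a2, and the adjusted p reached 0.34 and 0.19, limma), and the mRNA calls of Odc1, Slc7a2 and Slc25a29 with PULS and of Slc25a29 with CONS without any 1 of 4 or 5 libraries of the groups compared (adjusted p up to 0.086, 0.13, 0.11 and 0.16, edgeR).

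Among 8 tested partners of ammonia, bicarbonate and glutamine handling, 0 were called with PULS by edgeR and 1 with CONS, the glutamate carrier Slc1a2 (log2 1.07, SE 0.30, adjusted p = 0.029, edgeR). The mRNA counts of this and the next lists stand beside 4.23% of all genes called with PULS and 9.20% with CONS. Of 3 tested channels of urea and solute exit, Aqp8 fell by 0.85 on the log2 scale with CONS (adjusted p = 0.00047, edgeR). Of 4 factors tested in mRNA and known to act on urea cycle genes, the coactivator Ppargc1a (log2 0.98 and 2.93) and the transcription factor Foxo1 (log2 0.81 and 1.82) rose with PULS and CONS, and of 6 such factors tested in pSer2 Pol2, Cebpb (log2 3.88) and Foxo1 (log2 2.57) were raised at CONS_140. Both occupancy calls were lost without CONS_140 replicate 1 (adjusted p = 0.53 and 0.24, limma) and without 6 other libraries, the Slc1a2 call without CONS CORT replicate 1 or 2 or CONS VEH replicate 1 or 3 (adjusted p from 0.082 to 0.15, edgeR), and those of Ppargc1a and Foxo1 with PULS without PULS CORT replicate 1 (adjusted p = 0.074 and 0.073, edgeR) among others.

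Zonation genes outside the members were mixed in direction, where 4.23% of all genes tested in mRNA were called with PULS and 9.20% with CONS. Of 7 periportal genes, Sds (log2 3.02 and 4.11) and Pck1 (log2 1.00 and 0.91) rose in mRNA with PULS and CONS and Cdh1 fell with CONS (log2 -0.81). In pSer2 Pol2, Sds was raised at PEAK_140, CONS_140 and CONS_180 (log2 3.44, 2.54 and 2.20) and Hal was lowered at PEAK_140 (log2 -2.35). Of 11 pericentral genes, 1 rose and 2 fell with each pattern, with Lgr5 (log2 -1.40) and Tbx3 (log2 -1.08) down and Oat up in PULS, and Tbx3 (log2 -1.06) and Cyp7a1 (log2 -0.89) down and Slc1a2 up in CONS. In pSer2 Pol2, Rgn was lowered at PEAK_140 and CONS_140 (log2 -1.57 and -1.85), and Cyp1a2 and Cyp7a1 were raised at CONS_140 (log2 3.29 and 2.25). Each of these pSer2 Pol2 calls was lost without the VEH library of 180 min (adjusted p from 0.056 to 0.21, limma), and those of Lgr5, Tbx3 and Cyp7a1 in mRNA without 1 of at least 2 libraries of the groups compared (adjusted p up to 0.17, edgeR).

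Genes among the most like each member in mRNA over the 12 libraries, by Pearson's r of log2 CPM among 7303 genes with a mean of at least 10 CPM, were described without a test, since r includes the differences between groups. For Cps1 these were Mat1a (0.99), Sds (0.98) and Etnppl (0.98), for Slc25a15 Sdc4 (0.99), Rasgef1b (0.99) and Ell2 (0.98), and for Ass1 Flad1 (0.98) and Rnf139 (0.96). For Arg1 these were Med25, Akr1c14 and Bop1 (each 0.97), and for Glud1 Rpe (0.99), Cdo1 (0.97) and Akr1c14 (0.95). Otc was like Fam149a (0.91), Fam213a (0.91) and Acsl1 (0.90), Nags like Canx (0.94) and Lrp3 (0.93), and Gls2 like Ftcd (0.95), Psmb2 (0.93) and Mthfd1 (0.92). Among the members, Cps1 had an r of 0.95 with Ass1 and with Slc25a15, and of -0.52 with Otc.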

How the data were processed

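GR and pSer2 Pol2 ChIP-Seq, with input libraries, and RNA-Seq were performed on whole rat liver. The submitters' processing notes name Trimmomatic 0.36, STAR, SAMtools, HOMER 4.9.1, featureCounts 1.6.2 and DESeq2, and the build is rn6. The authors subtracted input tags. For their differential test they normalised GR tags to those within binding regions and pSer2 Pol2 tags to all tags. The deposited values are log2, with pSer2 Pol2 over the first 10 kb of each transcript. The authors deposited RNA reads as raw counts per gene from a stranded total RNA kit. Over all GR regions the deposited values held a median log2 change of 4.17 at PEAK_140 against VEH. Whether these values carry the normalisation to binding regions was not tested. A change of scale moves all regions of a GR library together, and subtraction makes low ChIP values uncertain. Columns of the authors' own fold changes and p-values were not used.

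RNA counts were tested with edgeR 4.0.16 (quasi-likelihood, TMM factors, genes whose reads summed over libraries exceeded 10) and ChIP values with limma 3.58.1 (moderated test with a variance trend, all 5 groups in 1 fit), in R 4.3.3, with Benjamini-Hochberg adjustment over all genes or regions. DESeq2 1.42.0 served as the alternative for counts, and tables and plots were made with Python 3.11.15, pandas 2.3.3 and matplotlib 3.10.9. Calls required both an adjusted p under 0.05 and a fold past 1.5. The steps were tested on simulated data. CPM values use TMM library sizes. RNA replicates were separate rats, and ChIP libraries pools of rats, so ChIP p-values measure the spread between pools. The totals of 3956379 to 7777219 reads limit precision among the members mainly for Nags, and floors cover counting error only. Of the genes named from other lists, Slc25a29, Slc4a1 and Lgr5 had fewer reads than Nags.

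For pSer2 Pol2, same-numbered CORT libraries deviated together (correlations of 0.16 to 0.48, over 0.1 in 6 of 6 pairs), so their numbers were taken to pair the libraries by that check and not by the labels, and the blocked value is given where it changes a call. The VEH libraries carry no number and were set midway between the numbers in that fit, so the block is estimated from the CORT libraries.

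All 9 members were named in every assay. Each was described over its longest pSer2 Pol2 region, and among equals over the one with the highest mean, with the called region of greatest change added. The 3 genes most like each member in mRNA were named, of which 1 each for Ass1 and Nags is not reported here. Genes of other lists were named when called, and the marker and control lists were given in brief in 1 paragraph. Members and lists were chosen with earlier results of these data known. Alternatives were other scalings, filters, windows of 25 and 100 kb, fits on only the groups compared, the replicate block, and leaving out each library.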

Additional observations from a re-analysis of the deposited data

Results flagged for a closer look

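A difference between the patterns or between their time courses passed the test of the difference itself in 8 cases. In mRNA, the response of the coactivator Ppargc1a was greater with CONS than with PULS by 1.95 on the log2 scale (SE 0.29, adjusted p = 0.032, edgeR), and the call was lost without 7 of the 12 libraries (adjusted p up to 0.10, edgeR). In pSer2 Pol2, the change from 180 to 140 min was greater in PULS than in CONS for Got1 by 3.10 (log2, SE 0.45, adjusted p = 0.042, limma) and more negative for Hal, which degrades histidine, by -3.14 (log2, SE 0.46, adjusted p = 0.044, limma). Both pSer2 Pol2 calls were lost without any 1 library other than CONS_140 replicate 2 (adjusted p up to 0.41 for Got1 and 0.46 for Hal, limma).

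In GR, the same time difference was greater in PULS at 5 of 21 regions, where 44.0% of all 3981 regions were called. Its median log2 value was 1.99 near the members and 3.11 over all regions. At Ass1 it was 3.67 at -9319.5 b (log2, SE 1.10, adjusted p = 0.028, limma), 4.43 at -6790.5 b (SE 1.10, adjusted p = 0.016, limma) and 4.27 at -5063.5 b (SE 1.40, adjusted p = 0.038, limma). At Cps1 it was 4.99 at -6333 b (SE 1.35, adjusted p = 0.021, limma) and at Slc25a15 3.98 at -887.5 b (SE 1.41, adjusted p = 0.048, limma), the latter lost without any 1 library other than CONS_180 replicate 2. After each library was centred on its median, 0 of the 5 were called, and the values in the order above were 0.28, 1.04, 0.88, 1.6 and 0.59.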

How the results depend on the processing

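Scaling moved GR most. The median change of all GR regions against VEH went from 4.17 (PEAK_140), 0.84 (NADIR_180), 3.38 (CONS_140) and 3.46 (CONS_180) to -0.45, -0.34, -0.73 and -0.60 after centring, so calls after centring are relative to that shift. In the order PEAK_140, CONS_140 and CONS_180 against VEH, 13, 13 and 11 regions called became 3, 1 and 2 after centring, 4, 3 and 2 after quantile normalization, and 7, 7 and 7 over the regions whose mean lay above the median. PEAK_140 against NADIR_180 went from 11 to 0, 0 and 7, the time effect from 5 to 0 and 0 and NADIR_180 against CONS_180 from 9 to 0 and 1 under centring and quantile normalization, and NADIR_180 against VEH from 0 to 1 after quantile normalization and to 1 with a window of 100 kb. Among regions called before or after the change of scale, the sign turned after centring at PEAK_140 for Asl -98.5 b (-0.34), Ass1 -6721.5 b (-4.35), 1956.5 b (-1.41) and 20039.5 b (-4.50), Cps1 -166.5 b (-1.92), Glud1 46775.5 b (-0.50) and Slc25a15 -887.5 b (-1.76), and after quantile normalization for Arg1 -27135.5 b (-2.93), Cps1 -166.5 b (-1.72) and Slc25a15 -887.5 b (-0.78). It turned after centring at CONS_140 for Ass1 -6721.5 b (-1.18), Cps1 -166.5 b (-0.63), Gls2 8753.5 b (-0.96) and Glud1 46775.5 b (-1.18), at CONS_180 for Ass1 -6790.5 b (-0.20) and 1956.5 b (-0.38), Cps1 -166.5 b (-0.71) and Gls2 8753.5 b (-0.23), and for Cps1 -166.5 b also after quantile normalization (-0.64 and -0.66). In PEAK_140 against NADIR_180 it turned for Arg1 -20362.5 b (-0.0008), Ass1 1956.5 b (-0.45) and Slc25a15 -887.5 b (-0.75), and in NADIR_180 against CONS_180 for Arg1 -20362.5 b (0.054), Glud1 -48825 b (0.11) and Cps1 -166.5 b (0.11, and 0.022 after quantile normalization). For pSer2 Pol2, a fit on only the groups compared gave 0 members for PEAK_140, 0 for CONS_140 and 1 for CONS_180 against VEH, 0 for PEAK_140 against NADIR_180 and 0 for NADIR_180 against CONS_180, with fewer libraries in the fit. Centring gave 5 for PEAK_140 against VEH and 3 for the time effect, quantile normalization 4 for CONS_180 against VEH, 1 for the time effect and 1 for PEAK_140 against CONS_140, no variance trend 1 for PEAK_140 against CONS_140, and the regions whose mean lay above the median (fewer regions tested) 1 for NADIR_180 and 4 for CONS_180 against VEH, 3 for the time effect, 3 for PEAK_140 against CONS_140 and 5 for NADIR_180 against CONS_180. For RNA, the difference of responses went from 0 to 1 with DESeq2 and with no filter on low counts, and the vehicle groups from 0 to 1 with DESeq2. Without each library in turn, member counts ranged in RNA from 5 to 6 (PULS), 4 to 5 (CONS), 0 to 1 (difference), 1 to 1 (CORT groups) and 0 to 2 (vehicle groups), and in pSer2 Pol2 from 0 to 3 (PEAK_140), 0 to 1 (NADIR_180), 1 to 7 (CONS_140) and 0 to 1 (CONS_180) against VEH, 0 to 3 (PEAK_140 against NADIR_180), 0 to 2 (CONS_140 against CONS_180), 0 to 3 (time effect), 0 to 7 (PEAK_140 against CONS_140) and 0 to 2 (NADIR_180 against CONS_180). GR regions called ranged from 9 to 14, 0 to 2, 9 to 18 and 7 to 13 against VEH, and from 5 to 11, 0 to 1, 0 to 7, 0 to 0 and 2 to 10 in the other comparisons in the same order. Where 2 libraries were reduced to 1, the lone library is assumed to vary like the other groups. For RNA (correlations from -0.17 to 0.20, over 0.1 in 6 of 18 pairs) and GR (from -0.04 to 0.10, over 0.1 in 0 of 6) the numbers did not pair the libraries. With the replicate number as a block the RNA counts were 6, 4, 0, 1 and 0, and the GR counts against VEH 14, 0, 14 and 11. In pSer2 Pol2 the block gave 4, 0, 4 and 2 against VEH and changed no member call beyond those given for Otc, Ass1 and Cps1. Of the single values, 9910 kept direction and side of the threshold, 622 fell below it, 256 passed it, 27 turned sign where the value was called with or without the alternative, and 401 turned sign where it was called in neither. The causes were not tested.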
